A study of Homo sapiens with 24 samples.

Results

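The 9 genes described here encode regulators that set or hold the identity of T helper cells: SATB1, GATA3, TBX21, EOMES, RORA, FOXP3, BCL6, TOX and PRDM1. Their rows were taken by symbol from the authors' deposited tables, and the genes were chosen with earlier results of these data known. These genes make up 9 of the 58780 genes listed. All 9 are in the table for TPA, a phorbol ester and direct activator of protein kinase C. TBX21 and FOXP3 are absent from the table for DMSO, the vehicle, which lists 13025 genes. After knockdown of PRKCQ no member passed an adjusted p of 0.05 in either treatment. RORA had the most negative fold change of the members in both treatments, at 47.6% of the control level in TPA and 39.2% in DMSO. EOMES stood next to it in TPA, at 58.9%, and SATB1 in DMSO, at 46.5%. GATA3, BCL6, TOX and PRDM1 lay between 94.5 and 119% in both.

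Naive CD4+ T cells turn into helper subsets under lineage-defining transcription factors, which activate the cytokine and receptor genes of their own subset and hold back those of others. T-bet, from TBX21, marks Th1 cells, GATA3 marks Th2 cells, ROR alpha, from RORA, acts in Th17 cells, FOXP3 marks regulatory T cells and BCL6 marks follicular helper cells. SATB1 folds chromatin into loops in thymocytes and T cells, and its loss has been described in Sézary cells. Cutaneous T cell lymphoma often carries Th2 features, and TOX is used as a marker of mycosis fungoides. PRKCQ encodes protein kinase C theta, which carries T cell receptor signals towards the NF-kappaB, NFAT and AP-1 factors, and which in mice is needed for Th2 and Th17 responses.

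RNA was sequenced from 24 libraries of 2 cutaneous T cell lymphoma lines, MyLa, labelled as mycosis fungoides, and HuT 78, labelled as Sézary syndrome. The groups, each of 3 libraries for each line, were shPRKCQ cells with TPA, NTC cells (a non-targeting control hairpin) with TPA, shPRKCQ cells with DMSO and NTC cells with DMSO. TPA was given at 10 ng/ml and treatment lasted 24 h. Knockdown cells were kept in doxycycline at 1 µg/ml for at least 72 h beforehand, per the labels' protocols. The protocols used here do not say whether NTC cells had doxycycline, so the drug and the hairpin cannot be told apart if they did not. Each value below is the authors' own comparison of 6 shPRKCQ libraries with 6 NTC libraries over both lines, so a change in 1 line and a smaller change in both cannot be told apart, nor can fewer cells of a type and less RNA per cell. Values per library, levels and sequencing depth are not analysed here.

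PRKCQ itself fell in both treatments. Its log2 fold change by the authors' deposited tables was -2.08 in TPA and -2.11 in DMSO (adjusted p = 1.67e-15 and 5.61e-14), or 23.7% and 23.1% of the NTC level. Which group stands on top of the fold change is not written there; since PRKCQ is the target, a negative value was read as lower in shPRKCQ cells. By the adjusted p-values of the authors, 22 of 19417 tested genes were called in TPA and 14 of 13007 in DMSO, which is 0.113% and 0.108%. Of the 19417 genes tested in TPA, 67.0% are in the DMSO table, so a gene missing there is not shown to be silent. Markers of T cells gave no call: of 16 markers 15 were tested in TPA, with 14 positive values and a median of 0.19 on the log2 scale, and 8 were tested in DMSO, with 4 positive values and a median of 0.068. Over all tested genes the medians were 0.011 in TPA and 0.0075 in DMSO, and 47.0% and 47.7% of the values were negative. CD4, CD2, CD5, CD7, CD3E, CD8B and LCK are absent from the DMSO table, and no level of any marker was used. B cell, myeloid and epithelial or stromal markers gave no call, with medians of 0.066 over 5 genes, 0.15 over 4 and -0.26 over 7 in TPA; in DMSO 1 gene of each list was tested. The B cell receptor gene CD79B was at -1.10 in TPA by the authors' deposited table (unadjusted p = 0.000773, adjusted p = 0.217). The part of these marker values in the results below was not tested.

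SATB1 (ENSG00000182568.16, chromosome 3, 18345387 to 18445588, minus strand, GRCh38), the chromatin organiser, had a log2 fold change of -0.47 in TPA by the authors' deposited table (unadjusted p = 0.112). In DMSO the authors' deposited table gave -1.11 (unadjusted p = 0.0014, adjusted p = 0.365). These correspond to 72.4% of the NTC level in TPA, with a 95% interval of 48.6 to 108%, and to 46.5% in DMSO, with an interval of 29.0 to 74.4%. In DMSO 22 of 13007 genes, SATB1 included, had a fold change as low, and 50 had a p-value as small. With p-values rescaled for their narrow spread over all genes, the DMSO value of SATB1 passed (adjusted p = 0.00585) and the TPA value did not (adjusted p = 0.713). This rescaling assumes that most genes did not change. It raised the genes passing from 14 to 109 in DMSO and from 22 to 113 in TPA.

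RORA (ENSG00000069667.15, chromosome 15, 60488284 to 61229319, minus strand, GRCh38) encodes the nuclear receptor ROR alpha, which acts in Th17 cells and in innate lymphoid cells. Its log2 fold change was -1.07 in TPA by the authors' deposited table (unadjusted p = 0.00427, adjusted p = 0.547). With vehicle the authors' deposited table gave -1.35 (unadjusted p = 0.00716, adjusted p = 0.878). RORA thus stood at 47.6% of the NTC level in TPA, with an interval of 28.6 to 79.2%, and at 39.2% in DMSO, with an interval of 19.8 to 77.6%. Both intervals lie under 100%, and of the 7 members in both tables RORA alone had an unadjusted p under 0.05 in both treatments, as 133 of 13007 genes had (1.02%). A log2 fold change of -1 or lower in both treatments was found for 5 genes, RORA, PRKCQ, LDLRAD3, FGFR1 and DNAJC5B, of which the authors' adjusted p called PRKCQ and LDLRAD3; the non-members were named after their values were seen. The treatments share no library, but related cultures could have been used for them. After rescaling, the DMSO value of RORA passed (adjusted p = 0.0439) and its TPA value did not (adjusted p = 0.0855).

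EOMES (ENSG00000163508.12, chromosome 3, 27715949 to 27722711, minus strand, GRCh38), the T-box factor eomesodermin of cytotoxic and memory T cells, had a log2 fold change of -0.76 in TPA by the authors' deposited table (unadjusted p = 0.000455, adjusted p = 0.173). In vehicle the authors' deposited table gave -0.36 (unadjusted p = 0.122). The level in TPA was 58.9% of that in NTC cells, with an interval of 43.9 to 79.2%, and in DMSO 77.8%, with an interval of 56.6 to 107%. Its TPA value had the smallest p of any member and stood among the 51 smallest of 19417 genes. After rescaling, EOMES passed in TPA (adjusted p = 0.0113) and did not in DMSO (adjusted p = 0.58). TBX21 (ENSG00000073861.2, chromosome 17, 47733244 to 47746119, plus strand, GRCh38), which encodes T-bet, the other T-box member, was at -0.30 in TPA by the authors' deposited table, with no p-value, one of 61 genes there with a fold change and no p. No error can be given for it, and it was not tested.

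Because SATB1, EOMES and RORA had the most negative values of the members, the 250 bases before a start of each are shown. They are the RefSeq sequences on GRCh38.p14, all on the minus strand, written 5′ to 3′. Capitals mark the NFAT core letters GGAAA or their complement TTTCC; the AP-1 letters TGANTCA, read on both strands, were also searched and are in none of these windows. The SATB1 window is the outermost of 4 RefSeq starts (chr3:18445593-18445842), the EOMES window belongs to its 1 start (chr3:27722324-27722573), and the RORA window belongs to its 1 start in the table (chr15:60627531-60627780), which lies 602 kb inside the annotated gene.
SATB1: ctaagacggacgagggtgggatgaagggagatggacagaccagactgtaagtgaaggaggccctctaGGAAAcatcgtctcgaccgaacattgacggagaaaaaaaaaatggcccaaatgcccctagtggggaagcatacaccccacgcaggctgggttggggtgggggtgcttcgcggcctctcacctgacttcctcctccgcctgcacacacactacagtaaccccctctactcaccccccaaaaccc
EOMES: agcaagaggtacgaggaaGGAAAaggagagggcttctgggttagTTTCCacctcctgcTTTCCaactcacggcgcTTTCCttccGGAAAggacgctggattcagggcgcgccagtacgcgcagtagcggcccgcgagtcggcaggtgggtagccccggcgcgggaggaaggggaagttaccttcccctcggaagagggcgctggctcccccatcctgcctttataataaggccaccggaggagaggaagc
RORA: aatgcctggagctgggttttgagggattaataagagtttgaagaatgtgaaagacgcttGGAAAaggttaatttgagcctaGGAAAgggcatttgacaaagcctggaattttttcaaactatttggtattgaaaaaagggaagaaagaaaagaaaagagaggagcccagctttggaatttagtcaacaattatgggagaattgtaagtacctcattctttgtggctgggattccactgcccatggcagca
The NFAT core letters occur once in the SATB1 window shown, 5 times in the EOMES window and 2 times in the RORA window. The SATB1 count depends on the start, with 1 to 3 matches over its 4 windows. The 12 windows of GATA3, BCL6, PRDM1, TBX21 and FOXP3 hold 0 to 2 matches each, and 3 of them, 1 each of GATA3, BCL6 and PRDM1, hold the AP-1 letters. Of 35116 RefSeq windows of this length 55.6% hold at least 1 match, 22.4% at least 2 and 0.399% at least 5, the count of EOMES. The AP-1 letters are in 6.57% of the windows. The GC content was 57.2% for SATB1, 62% for EOMES and 40% for RORA, beside a median of 58% over all windows. A match describes letters only, and which start the cells used is not known here. Windows were found for 8 of the 9 members, all but TOX.

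GATA3 (ENSG00000107485.16, chromosome 10, 8045378 to 8075203, plus strand, GRCh38), the Th2 factor, was the member with the highest fold change in both treatments. It was at 0.25 in TPA and 0.16 in DMSO on the log2 scale by the authors' deposited tables (unadjusted p = 0.145 and 0.36). The intervals ran from 94.2 to 150% of the NTC level in TPA and from 88.0 to 142% in DMSO. FOXP3 (ENSG00000049768.14, chromosome X, 49250436 to 49264826, minus strand, GRCh38), the factor of regulatory T cells, was at -0.12 in TPA by the authors' deposited table (unadjusted p = 0.679). Its interval was wide, from 60.9 to 138% of the NTC level.

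BCL6 and PRDM1, which encodes BLIMP1, repress each other in T and B cells, and the intervals of both included 100% of the NTC level. BCL6 (ENSG00000113916.17, chromosome 3, 187721377 to 187745727, minus strand, GRCh38) was at 0.045 in TPA and 0.13 in DMSO on the log2 scale by the authors' deposited tables (unadjusted p = 0.833 and 0.564). PRDM1 (ENSG00000057657.16, chromosome 6, 106086320 to 106109939, plus strand, GRCh38) was at -0.043 in TPA and -0.082 in DMSO by the authors' deposited tables (unadjusted p = 0.815 and 0.668). The intervals of BCL6 spanned 77.5 to 137% of the NTC level in TPA and 80.8 to 148% in DMSO. Those of PRDM1 spanned 75.8 to 124% and 72.9 to 122%. TOX (ENSG00000198846.5, chromosome 8), an HMG-box factor needed for CD4+ T cell development in mice, was at 0.062 in TPA and 0.15 in DMSO by the authors' deposited tables (unadjusted p = 0.723 and 0.412), with intervals of 82.3 to 132% and 86.7 to 142% of the NTC level.

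**Figure D1:**
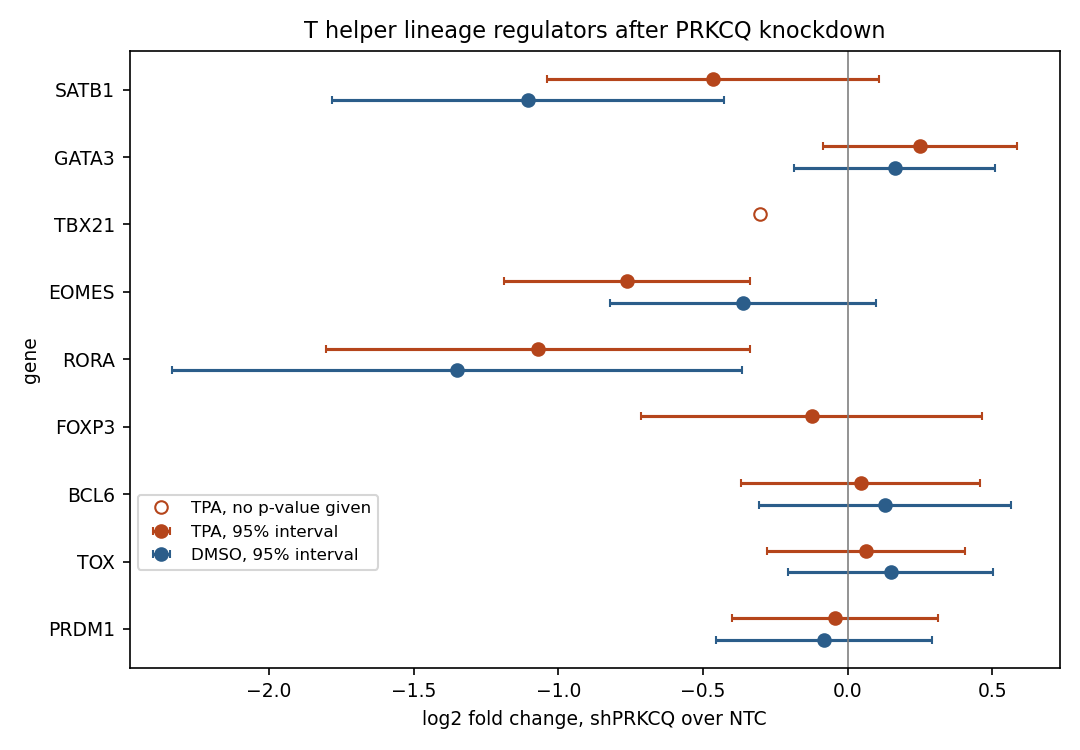
Log2 fold change of shPRKCQ over NTC for each of the 9 members, in TPA (upper point of each pair) and DMSO (lower point), with 95% intervals from the implied standard error; the open circle for TBX21 has no p-value and no interval. The RORA intervals lie under 0 in both treatments, that of SATB1 in DMSO and that of EOMES in TPA, and all other intervals include 0.

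The members were thus called 0 times among 8 tested in TPA and 0 times among 7 tested in DMSO by the authors' adjusted p, beside 0.113% and 0.108% of all tested genes. At an unadjusted p under 0.05 there were 2 of 8 in TPA, EOMES and RORA, beside 3.99% of all tested genes. In DMSO there were 2 of 7, SATB1 and RORA, beside 3.04%. All 4 of these values were negative, and 1.93% of tested genes in TPA and 1.67% in DMSO had such a p with a negative value. The median log2 fold change over the tested members was -0.084 in TPA and -0.082 in DMSO, beside 0.011 and 0.0075 over all tested genes. With rescaled p-values 1 member passed in TPA, EOMES, and 2 in DMSO, SATB1 and RORA, beside 0.582% and 0.838% of all tested genes. Because the members were chosen with earlier results of these data known, none of these shares is independent evidence about them.

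**Figure D2:**
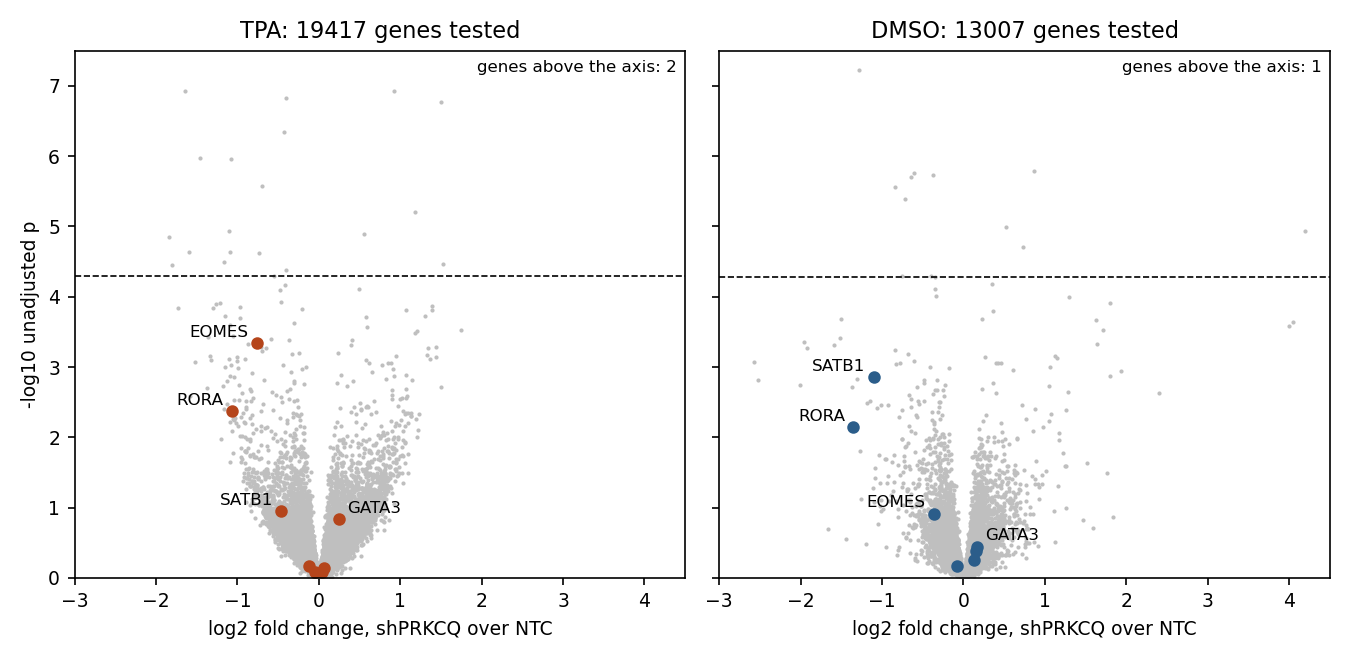
Log2 fold change of shPRKCQ over NTC (x axis) against -log10 of the unadjusted p (y axis) for all genes with an adjusted p, in TPA (left, 19417 genes) and DMSO (right, 13007 genes), with members in colour and the largest called p as a dashed line. The y axis ends at 7.5, above which lie 2 genes in TPA and 1 in DMSO, PRKCQ among them in both; every tested member lies under the dashed line.

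The members also differed in the size of their error. The implied standard error, the fold change divided by the z-value of its p, was 0.17 for GATA3, 0.17 for TOX and 0.18 for PRDM1 on the log2 scale in TPA, and 0.37 for RORA. In DMSO it was 0.50 for RORA and 0.35 for SATB1, above those of 97.6% and 91.0% of tested genes, against 0.18 for GATA3 and TOX and 0.19 for PRDM1. The largest p called by the authors was 5.01e-05 in TPA and 5.2e-05 in DMSO. At its own error, RORA would have needed an absolute log2 fold change of 1.52 in TPA and 2.03 in DMSO to reach that p. The same limit was 1.19 and 1.40 for SATB1, 0.88 and 0.95 for EOMES and 0.70 and 0.72 for GATA3. The value observed was 86.5% of the size needed for EOMES in TPA, 78.9% for SATB1 in DMSO, and 70.5% and 66.5% for RORA in TPA and DMSO. For GATA3, BCL6, TOX and PRDM1 it was at most 36.0% in either treatment. A member that misses the threshold is therefore not shown to be unaffected.

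Ordered by fold change, the members in TPA ran from RORA, EOMES and SATB1 through TBX21, FOXP3, PRDM1, BCL6 and TOX to GATA3. In DMSO the order was RORA, SATB1, EOMES, PRDM1, BCL6, TOX and GATA3. The 95% intervals of each pair of tested neighbours in these orders overlapped. The intervals of RORA and GATA3 did not overlap in either treatment, but these genes were picked as the ends of orders made from the same values. A difference between them was not tested.

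The question whether TPA altered the effect of the knockdown was put to each of the 7 members in both tables by the difference of fold changes, TPA minus DMSO, over the implied standard errors. With the tables taken as independent none passed. The adjusted p over 13007 genes was 1.00 for each of the 7 and the smallest unadjusted p was 0.158. When they were taken as correlated (r = 0.515 across genes) the smallest was 0.0442, for SATB1, and still none passed after adjustment. This r is that of the z-values, so it also holds changes common to both treatments, and the p of 0.0442 may be too small. SATB1 had the largest difference, 0.64 with a 95% interval of -0.25 to 1.53. EOMES was at -0.40 (interval -1.03 to 0.23) and RORA at 0.28 (interval -0.95 to 1.51). The differences of the other 4 members lay between -0.086 and 0.088. Across all genes 0 of 13007 passed and 57 had an unadjusted p under 0.05; 24 passed with rescaled p-values and 6 with the tables taken as correlated, no member among them. The low value of SATB1 in DMSO and that of EOMES in TPA are therefore not shown to belong to 1 treatment. Whether the authors shrank the fold changes is not stated, so the scales of the tables may differ, and the percentages of the NTC level rest on these values. Up to 2910 genes share 1 value in TPA, which does not settle the matter. If the fold changes were shrunk, the implied standard errors, the 95% intervals and the tests of the differences may be off as well.

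**Figure D3:**
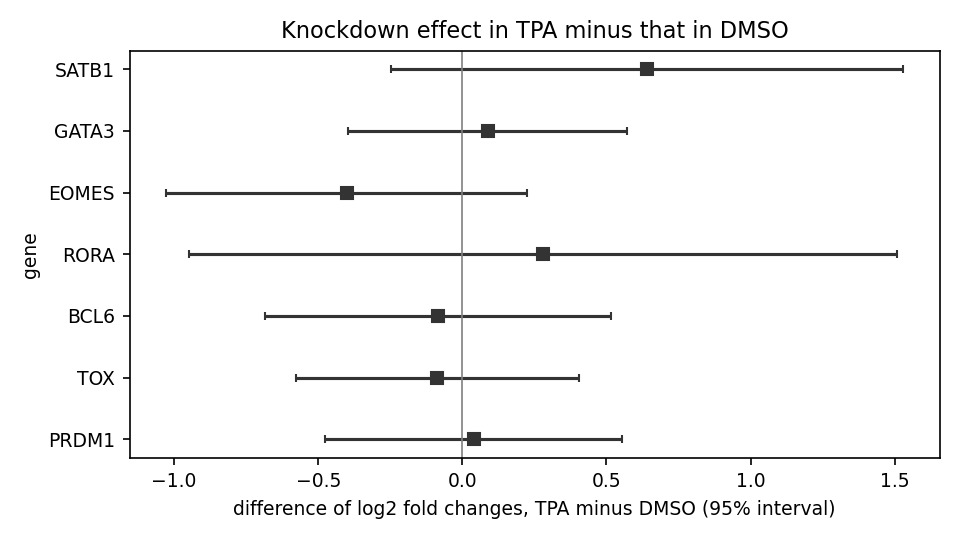
Difference of the knockdown effect, TPA minus DMSO, on the log2 scale for the 7 members in both tables, with 95% intervals (x axis: difference of log2 fold changes). The intervals take the tables as independent. Every interval so computed includes 0, and those of RORA and SATB1 are the widest.

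Noncoding RNAs at the members' loci and the nearest protein-coding genes gave no call. SATB1-AS1 (chromosome 3, 18445024 to 18920401, plus strand, GRCh38), a long noncoding RNA that starts head to head with SATB1 and overlaps it by 565 bases, was at -0.49 in TPA by the authors' deposited table (unadjusted p = 0.176) beside -0.47 for SATB1. SATB1-AS1 is absent from the DMSO table, where SATB1 was at -1.11, so they could be compared in TPA only. The libraries were strand-specific per the labels, though the setting used for counting is not given in the sources used here. GATA3-AS1 was at 0.26 in TPA and 0.097 in DMSO by the authors' deposited tables, beside 0.25 and 0.16 for GATA3. RORA-AS1, an antisense RNA that overlaps RORA, was at -0.094 in TPA and -0.12 in DMSO by the authors' deposited tables (unadjusted p = 0.744 and 0.724), where RORA was at -1.07 and -1.35. RORA-AS2 is listed in TPA without a value. Of the nearest protein-coding genes on each side of the 9 members, 18 in all, 17 were tested in TPA and 12 in DMSO. Genes overlapping a member were left out, and the distances ran from 5.02 kb (PPP1R3F, from FOXP3) to 2723 kb (CELF2, from GATA3). Many of these genes are thus not close neighbours. None was called. In TPA 2 of the 17 had an unadjusted p under 0.05, beside 3.99% of all tested genes: TBKBP1, next to TBX21, at -0.65 and NSMAF, next to TOX, at 0.18, by the authors' deposited table (unadjusted p = 0.0363 and 0.00937). In DMSO 1 of the 12 did, beside 3.04% of all tested genes. It was CELF2, 2723 kb from GATA3, at -0.37 by the authors' deposited table (unadjusted p = 0.0102). These 3 were named after their values were seen. The neighbours of SATB1, EOMES and RORA (PLCL2, KCNH8, SLC4A7, CMC1, ICE2 and VPS13C) lay 9.12 to 1255 kb away. Their log2 fold changes were between -0.14 and 0.24 in TPA. With vehicle the 5 of them that the DMSO table lists lay between -0.17 and 0.082.

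The wider programmes of the lineages were examined through lists of other genes, by counts alone. Over all 10 lists plotted, each gene counted once, 0 of 151 tested genes were called in TPA and 1 of 109 in DMSO, beside 0.113% and 0.108% of all tested genes. At an unadjusted p under 0.05 there were 15 in TPA and 3 in DMSO, or 9.93% and 2.75%, beside 3.99% and 3.04% of all tested genes. These lists too were chosen with earlier results of these data known, so the shares are description only. Beside the counts of signs below, 47.0% of all tested genes had a negative value in TPA and 47.7% in DMSO. The called gene was NFATC2, which encodes NFAT1, a partner of FOXP3 and other members. It fell in DMSO, with a log2 fold change of -0.65 (adjusted p = 0.00422), and was at -0.33 in TPA (adjusted p = 0.938) by the authors' deposited tables. The difference between the treatments was 0.32 with an unadjusted p of 0.0933 and an adjusted p of 1.00. The other corepressors and partners were not called, and the list had medians of 0.0061 over 17 genes in TPA and -0.048 over 16 in DMSO. ZFPM1, which encodes FOG1, a GATA cofactor, was at 0.32 in TPA and -0.033 in DMSO by the authors' deposited tables (unadjusted p = 0.0358 and 0.831). The methyltransferase gene EHMT2 was at -0.20 in TPA and -0.14 in DMSO.

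Th1 genes had a median log2 fold change of -0.079 over 14 genes in TPA, 10 negative, and of -0.034 over 10 genes in DMSO. IFNG, the cytokine that T-bet and eomesodermin activate, was at -1.59 in TPA (unadjusted p = 0.00259, adjusted p = 0.43), and STAT4, the signal transducer of IL12, at 0.42 (unadjusted p = 0.0364), by the authors' deposited table. IFNG is absent from the DMSO table, where STAT4 was at -0.12 by the authors' deposited values (unadjusted p = 0.575). Th2 genes had medians of 0.040 over 14 genes in TPA and -0.021 over 8 in DMSO. MAF, which drives IL4, was at 0.87 in TPA by the authors' deposited table (unadjusted p = 0.0497), and IL1RL1, the IL33 receptor, at -0.75 (unadjusted p = 0.0884).

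Th17 genes had a median of -0.26 over 12 genes in TPA, 8 of them negative, and of -0.020 over 7 in DMSO. IL23R, a receptor that stabilises Th17 cells, was at -0.89 in TPA (unadjusted p = 0.0159) and BATF, an AP-1 factor, at -0.35 (unadjusted p = 0.0211), by the authors' deposited table. In DMSO BATF was at -0.13 by the authors' deposited table (unadjusted p = 0.417). The cytokine gene IL17F, named after its values were seen, had a positive value, 0.91 in TPA by the authors' deposited table (unadjusted p = 0.0339). IL6R, a receptor whose signal starts Th17 differentiation, was at 0.14 in TPA and 1.62 in DMSO (unadjusted p = 0.692 and 0.000217) by the authors' deposited tables. In DMSO its adjusted p was 0.123, and the difference of its fold changes, -1.48, had an unadjusted p of 0.00805 and an adjusted p of 1.00, or of 0.00554 after rescaling. Treg genes had medians of 0.069 over 16 genes in TPA and -0.033 over 14 in DMSO. IL10, an inhibitory cytokine, was at -1.07 in TPA by the authors' deposited table (unadjusted p = 0.000927, adjusted p = 0.234), and IKZF4, a partner of FOXP3, at 0.38 (unadjusted p = 0.0454). In DMSO IKZF4 was at -0.093 by the authors' deposited table (unadjusted p = 0.639).

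Follicular and stem-like genes had medians of 0.020 over 14 genes in TPA and 0.021 over 9 in DMSO, with no unadjusted p under 0.05 in either. TCF7, which encodes TCF1, was at 0.16 in TPA and 0.82 in DMSO by the authors' deposited tables. Effector and exhaustion genes had medians of 0.16 over 16 genes in TPA, 11 positive, and -0.16 over 11 in DMSO, 7 negative. NR4A3 was at 0.67 in TPA and 0.081 in DMSO by the authors' deposited tables (unadjusted p = 0.0204 and 0.819). PRF1, which encodes perforin, was at 0.56 in TPA and -0.10 in DMSO (unadjusted p = 0.0296 and 0.712). KLRG1 was at 0.13 in TPA and 0.44 in DMSO (unadjusted p = 0.504 and 0.0295), by the same tables. T cell commitment genes and chromatin partners of SATB1 stood within a narrow range, with medians of 0.029 in TPA and 0.027 in DMSO over 17 genes and no unadjusted p under 0.05. BCL11B, the factor that commits thymocytes to the T lineage, was at 0.11 in TPA and 0.13 in DMSO by the authors' deposited tables.

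Among paralogs of the members, with medians of 0.016 over 23 genes in TPA and 0.048 over 13 in DMSO, none was called. The T-box genes TBX10 and TBX22, relatives of EOMES and TBX21, had positive values in TPA, 0.74 and 0.77 by the authors' deposited table (unadjusted p = 0.0282 and 0.0344), and are absent from the DMSO table. PRDM15, of the same family as PRDM1, was at 0.17 in TPA and 0.24 in DMSO (unadjusted p = 0.191 and 0.0741), by the authors' deposited tables. Genes reported in Sézary cells had medians of 0.097 over 14 genes in TPA and -0.060 over 7 in DMSO. TWIST1, a transcription factor, was at -0.24 in TPA and -0.37 in DMSO, and NEDD4L, a ubiquitin ligase, at 0.53 in TPA (unadjusted p = 0.0431), by the authors' deposited tables.

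**Figure D4:**
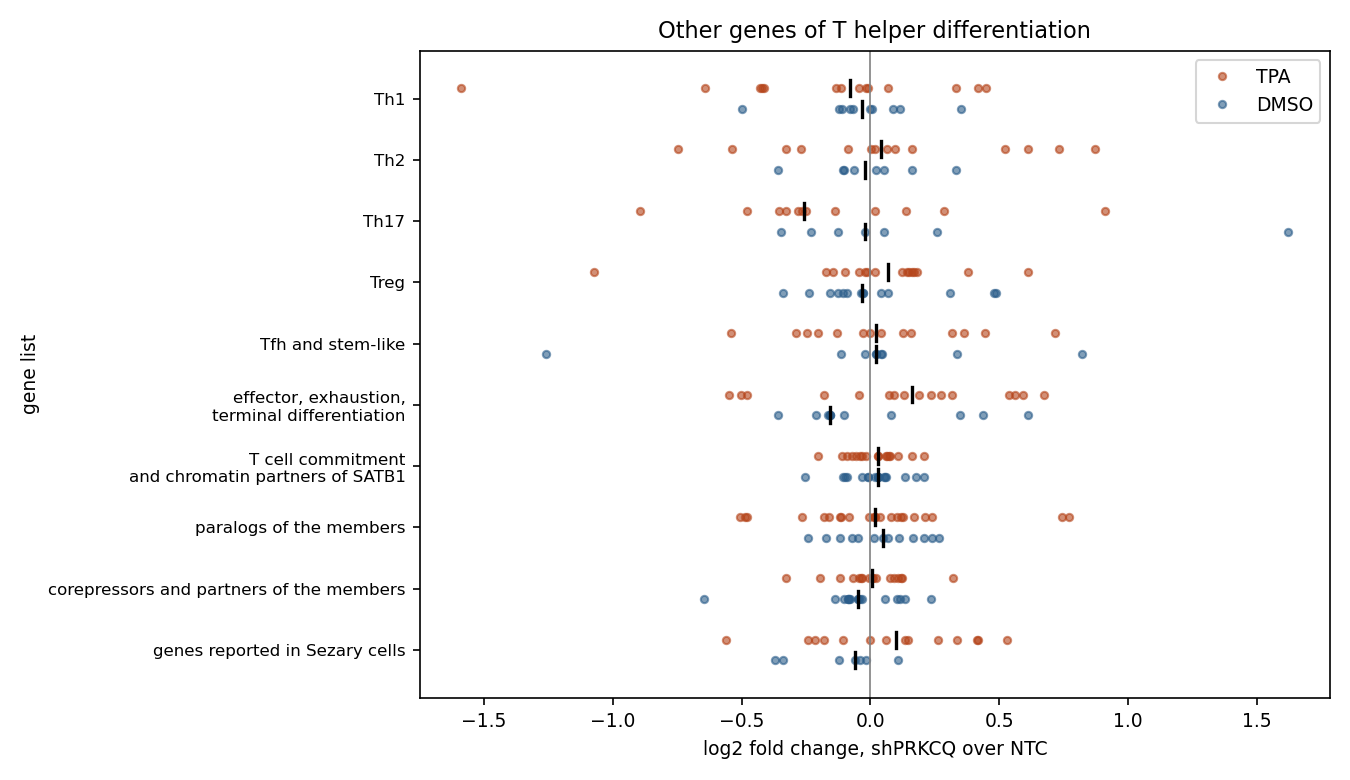
Log2 fold change of shPRKCQ over NTC (x axis) of each tested gene of 10 lists (y axis), in TPA (upper row of each pair) and DMSO (lower row), with black bars at the list medians. The medians lie between -0.26 and 0.16, and the 1 called value is that of NFATC2 in DMSO, at -0.65 in the list of corepressors and partners.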

How the data were processed

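The 2 tables used were made by the authors and hold, per the file headers, for each gene a log2 fold change with its p-value and adjusted p-value. The submitters' processing notes name STAR 2.5.3a, RSEM 1.3.0, DESeq2 1.18.1 and GRCh38 without their roles; the model, its covariates and any shrinkage of the log2 values by the authors are not stated in the labels or headers. Libraries were strand-specific and made from poly(A)-selected RNA, per the labels' protocols. The replicates are called independent in the labels, and no value per library was used, so depth is unknown and no test was refitted. A gene was called at the authors' adjusted p under 0.05.

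From each deposited p-value and sign a z-value was computed, the implied standard error as the log2 fold change over z, and a 95% interval of 1.96 such errors, which takes z as normal. It also takes each p-value as belonging to the fold change given, which shrinkage of the fold change could break. Effects in TPA and DMSO were compared by their difference over these errors, with Benjamini-Hochberg adjustment over all shared genes, taking the tables as independent. Rescaled p-values divide z by its robust SD over tested genes. Scripts were tested on simulated data. Coordinates are those of GENCODE 29. Python 3.11.15, numpy 2.4.6, scipy 1.17.1, pandas 2.3.3 and matplotlib 3.10.9 were used.

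Members and lists were chosen with earlier results of these data known. Named are all members and, of each list, called genes and examples from the 2 smallest p-values in each table; other exceptions are marked. Some genes stand in more than 1 list. Alternatives tried were a stricter threshold, a minimum fold change, other gene sets in the adjustment, rescaled p-values and other forms of the difference.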

Additional observations from a re-analysis of the deposited data

How the results depend on the processing

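The number of members called stayed at 0 in both treatments with no filter on low genes and with an adjustment over the genes of both tables. It also stayed at 0 with an adjustment over protein-coding genes only, chosen after seeing the data. In DMSO the unfiltered and shared-gene adjustments used the same 13007 genes as the main one, so they were no separate check there. An adjusted p under 0.01 or a minimum absolute log2 fold change of 1 could only leave the count at 0. Rescaled p-values gave 1 member in TPA and 2 in DMSO; the robust SD of z was 0.84 in TPA and 0.753 in DMSO, and the rescaling assumes that most genes did not change. Of all genes, where 22 were called in TPA and 14 in DMSO, 10 and 8 were left at 0.01, 14 and 3 with the minimum fold change, and rescaled p-values gave 113 and 109. An adjustment over the genes of both tables left 8 in TPA, as 6410 of the genes tested there are not in the DMSO table. The 7 differences between treatments missed the threshold in every form tried, though with the tables taken as correlated (r = 0.515 across genes) the unadjusted p of SATB1 was 0.0442. That p may be too small, since r also holds changes common to both treatments. No paired analysis was possible because no value per library was used; left-out replicates, other tools and normalizations were not run for the same reason. Depth is unknown, so its limits could not be assessed.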
